A study of Mus musculus with 9 samples.

Results

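The mRNAs of *Ankrd50*, *Desi2*, *Tmem35a*, *Pip4p1*, *Smim17*, *Hilpda* and *Popdc3* were chosen by their measured ratio, the mean CPM (counts scaled to a common library size) in the CELF2 pull-down over that in the IgG pull-down, among mRNAs with counts in the control libraries. They are 7 of 18639 protein-coding genes that had a count in any of the 9 libraries, and they take 14 of the 107384 transcript rows of the count table. CELF2 is an RNA-binding protein that shuttles between nucleus and cytoplasm, prefers GU-rich sequence, and is known for control of splicing in the nucleus and of mRNA stability and translation in the cytoplasm. In RNA immunoprecipitation followed by sequencing (RIP-seq), an antibody captures a protein and the RNA bound to it is counted. A ratio over an IgG pull-down therefore compares the antibody with a nonspecific one, and a ratio over Input compares the pulled-down RNA with the starting RNA.

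All 9 libraries came from the cytoplasmic fraction of cortices of mice at postnatal day 0. The animals were heterozygous for a *Celf2* knockin (KI) allele made by CRISPR/Cas9 that encodes CELF2 p.R493H. The groups were 3 CELF2 RIP libraries (10 µg of rabbit antibody against CELF2, 3 hours), 3 IgG RIP libraries (10 µg of normal rabbit IgG, 3 hours) and 3 Input libraries (an aliquot kept before antibody was added). Every group carried the KI allele and no wild-type library was used here, so CELF2 from the wild-type and the KI allele cannot be told apart. The number of animals per library is not given in the sources used here. Total estimated counts per library ranged from 15919600 to 20052716 for CELF2 RIP, from 17365561 to 28773130 for IgG RIP and from 69125700 to 105116427 for Input, of which protein-coding genes took 13523208 to 16840312, 9347321 to 14965243 and 55250740 to 78514685. Rows that matched no gene held 21.1% to 43.5% of the counts in IgG RIP, 11.6% to 12.6% of those of CELF2 RIP and 9.24% to 9.75% of those of Input. The mRNA of *Celf2* was at 638 ± 164 CPM (SD, n = 3) in CELF2 RIP, 233 ± 33.4 CPM with IgG and 296 ± 14.9 CPM in Input. Summed markers of excitatory neurons were at 1671 to 2279 CPM in CELF2 RIP, 894 to 1041 CPM with IgG and 971 to 1135 CPM in Input, and 4 of 7 were called higher than in IgG RIP. Summed markers of radial glia were at 125 to 169, 303 to 348 and 367 to 385 CPM in the same order, with 3 of 6 called lower, and those of erythroid cells at 75.2 to 78.4, 285 to 453 and 710 to 918 CPM, with 4 of 5 called lower. Those of inhibitory neurons were at 447 to 609, 258 to 317 and 348 to 359 CPM, with 2 of 6 called higher. Astrocyte and microglia markers each had 1 called higher and 1 lower. Of all tested genes, 13.4% were called higher than in IgG RIP and 13.6% lower. The part of these marker levels in the ratios of the 7 mRNAs was not tested, and neither was the cause of the marker differences between the groups.

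The 7 genes lie on 7 chromosomes (assembly GRCm38.p6, the mm10 build named in the submitters' processing notes). *Ankrd50* (gene ID 99696), an ankyrin-repeat protein of endosome-to-surface recycling, spans chr3:38449259-38484862 on the minus strand. *Desi2* (78825), of a family of deSUMOylating isopeptidases, spans chr1:178187417-178252598 on the plus strand. *Tmem35a* (67564), which encodes NACHO, a chaperone for the assembly of nicotinic acetylcholine receptors, spans chrX:134295225-134305969 on the plus strand. *Pip4p1* (219024), which encodes a lysosomal phosphoinositide phosphatase also known as TMEM55B, spans chr14:50927215-50931010 on the minus strand. *Smim17* (100042450), a small integral membrane protein without a known role, spans chr7:6415194-6431086 on the plus strand. *Hilpda* (69573), a hypoxia-induced lipid droplet protein that inhibits triglyceride lipolysis, spans chr6:29272488-29275449 on the plus strand. *Popdc3* (78977), a membrane protein with a cAMP-binding Popeye domain known from muscle, spans chr10:45289305-45318450. Their genomic spans ran from 2.96 to 65.2 kb. Of the members, 2 had another gene in the gene table overlapping or within 1 kb. *Apex1* lies 27 bp from *Pip4p1*, and its mean level was lower in CELF2 RIP (10.5 CPM) than in IgG RIP (27.5 CPM). The noncoding *Gm15934* overlaps *Popdc3* by 112 bp and was not tested. The strand of *Popdc3* and the strand setting of the quantification are not given in the sources used here, so reads of the overlap cannot be assigned to either gene with certainty, which bears on the low counts of *Popdc3*.

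Each mRNA was counted in every library, and all values below are CPM on TMM-scaled library sizes, summed over the transcript rows of a gene. CPM were not divided by transcript length, so levels are compared between libraries and not between genes. The ratio over IgG RIP chose the 7 mRNAs and is given as a description, without a test. The contrasts with Input share libraries with that choice. Their calls by the threshold used for all genes are counted below as descriptions of the 7 mRNAs and support nothing about them.

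The endosomal *Ankrd50* mRNA had the largest mean ratio and the widest spread. It was at 30.5, 132 and 126 CPM in CELF2 RIP replicates 1, 2 and 3, at 8.82, 7.63 and 5.09 CPM in IgG RIP and at 8.52, 10.9 and 9.33 CPM in Input. Replicate 1 of CELF2 RIP stood 4.34-fold below the highest replicate but still 2.797-fold above the highest control library. The log2 fold change was 3.74 (SE 0.49) over IgG RIP and 3.33 (SE 0.47) over Input. IgG RIP and Input overlapped for this gene, with a log2 fold change of -0.42 (SE 0.46) between them.

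For *Desi2*, the deSUMOylase family member, CELF2 RIP was at 52.1, 68.0 and 41.6 CPM, IgG RIP at 2.44, 3.57 and 7.10 CPM and Input at 16.7, 14.9 and 13.7 CPM. The 3 groups did not overlap, and the order was CELF2 RIP, Input, IgG RIP. The log2 fold change was 3.62 (SE 0.35) over IgG RIP and 1.84 (SE 0.31) over Input, and IgG RIP was below Input by -1.79 (SE 0.33).

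*Tmem35a*, the nicotinic receptor chaperone, had the deepest counting of the 7 mRNAs, with 609 or more counts in every library. Its levels were 395, 773 and 392 CPM in CELF2 RIP, 56.9, 60.4 and 93.0 CPM with IgG, and 162, 168 and 169 CPM in Input. Replicate 2 of CELF2 RIP was 1.97-fold above the lowest, while the Input libraries had a mean of 166 ± 3.82 CPM (SD, n = 3). The log2 fold change was 2.89 (SE 0.29) over IgG RIP, 1.65 (SE 0.27) over Input and -1.25 (SE 0.27) for IgG RIP over Input.

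The lysosomal phosphatase mRNA *Pip4p1* had nearly the same fold changes as *Tmem35a*. It was at 85.7, 134 and 96.0 CPM in CELF2 RIP, 15.5, 17.05 and 10.5 CPM with IgG, and 33.9, 33.3 and 33.6 CPM in Input. The 3 groups did not overlap. The log2 fold change was 2.88 (SE 0.22) over IgG RIP, 1.65 (SE 0.20) over Input and -1.23 (SE 0.21) for IgG RIP over Input.

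*Hilpda*, the lipid droplet protein, was at 29.99, 39.6 and 23.2 CPM in CELF2 RIP, 2.69, 4.46 and 7.02 CPM with IgG, and 8.25, 9.54 and 8.81 CPM in Input. The highest IgG RIP library stayed below the lowest Input library, and the lowest CELF2 RIP library was 2.43-fold above the highest control. On the log2 scale *Hilpda* stood 2.71 (SE 0.32) above IgG RIP and 1.80 (SE 0.30) above Input, and the value for IgG RIP over Input was -0.91 (SE 0.31).

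*Smim17* and *Popdc3* were the shallowest. *Smim17* had 42, 95 and 64 counts in CELF2 RIP, 14, 8 and 9 counts with IgG and 160, 232 and 142 in Input, which gave 3.36, 7.31 and 5.71 CPM, 0.876, 0.793 and 0.645 CPM, and 2.54, 2.56 and 2.30 CPM. The lowest CELF2 RIP library was 1.31-fold above the highest Input library, the narrowest gap of the 7 mRNAs. Its log2 fold change was 2.82 (SE 0.36) over IgG RIP, 1.15 (SE 0.31) over Input and -1.67 (SE 0.35) for IgG RIP over Input.

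*Popdc3* had 38, 36 and 27 counts in CELF2 RIP, 7, 5 and 5 counts with IgG and 73, 106 and 82 in Input. The levels were 3.04, 2.77 and 2.41 CPM in CELF2 RIP, 0.438, 0.496 and 0.358 CPM with IgG, and 1.16, 1.17 and 1.33 CPM in Input. It had the tightest CELF2 RIP libraries of the 7, with a coefficient of variation of 11.5%. The log2 fold change was 2.67 (SE 0.36) over IgG RIP, 1.17 (SE 0.31) over Input and -1.502 (SE 0.35) for IgG RIP over Input. Summed markers of skeletal and cardiac muscle, the tissue this family is best known from, were at 2.72 to 3.48 CPM in CELF2 RIP, 3.80 to 6.13 CPM with IgG and 5.44 to 5.58 CPM in Input. Of those 7 markers *Ckm*, *Tnnt3* and *Actc1* were too low to be tested.

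**Figure D1:**
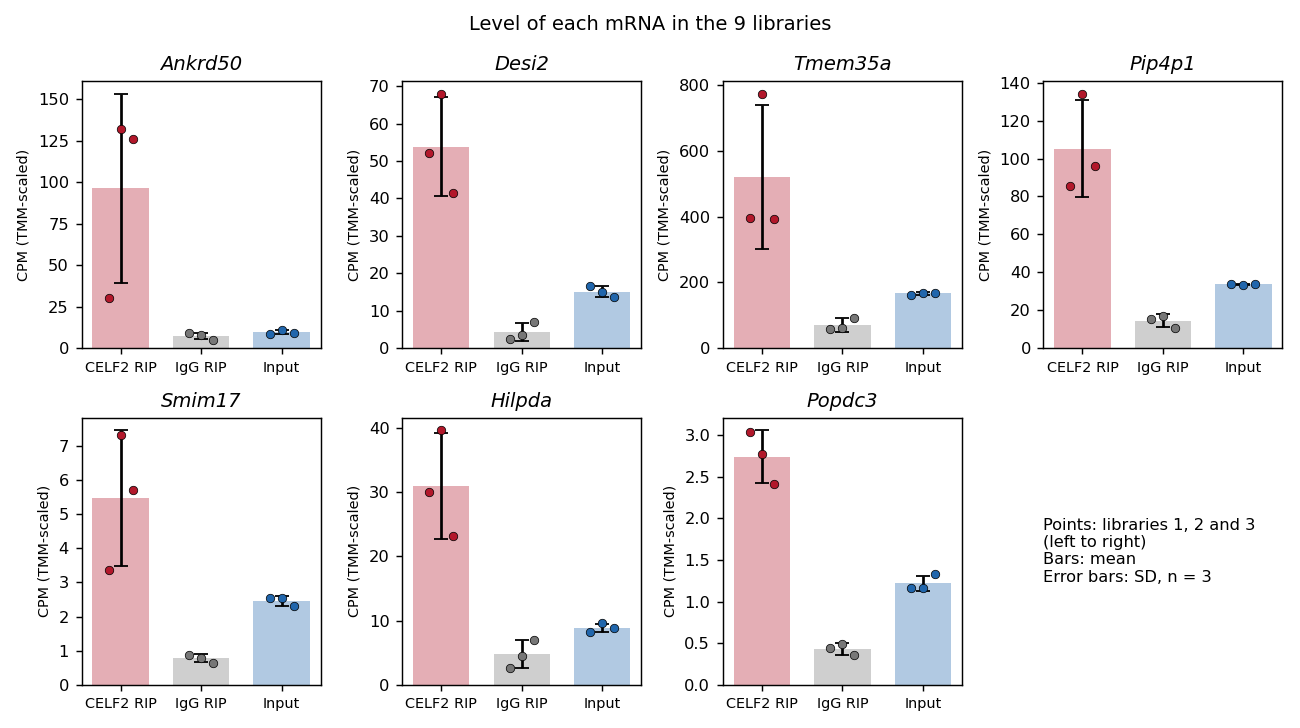
Level of each of the 7 mRNAs (y axis, CPM on TMM-scaled library size, linear from 0, with its own scale per panel) in CELF2 RIP, IgG RIP and Input (x axis). Points are libraries 1, 2 and 3 from left to right, bars are means and error bars SD (n = 3); every CELF2 RIP point lies above all 6 control points of its panel, by 1.31-fold for *Smim17* up to 2.797-fold for *Ankrd50*.

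In the order of means, CELF2 RIP was above Input and Input above IgG RIP for all 7 mRNAs. On TMM-scaled CPM, the 3 CELF2 RIP libraries lay above all 6 control libraries for 7 of 7, as for 25.2% of the 15267 genes tested, and the choice by the ratio of these libraries largely fixes that count. TMM factors were 0.771 to 0.878 in CELF2 RIP, 1.05 to 1.08 in IgG RIP and 1.12 to 1.16 in Input, which raises CELF2 RIP levels against both controls. On unscaled CPM the mean ratio over Input was 1.58 for *Smim17* and 1.64 for *Popdc3*. The separation of libraries was not counted on unscaled CPM. The 3 IgG RIP libraries lay below the 3 Input libraries for 6 of 7, with *Ankrd50* as the exception, against 29.4% of tested genes. A gene was called at an FDR under 0.01 with at least a 2-fold change in edgeR's quasi-likelihood test. All 7 were called higher in CELF2 RIP than in IgG RIP, where the background was 13.4%, but the choice of members fixes that count. All 7 were also called higher than in Input, with a background of 14.6%, and 7.58% of genes were called higher than both controls. These counts are not independent of the choice either, since it used the same 3 CELF2 RIP libraries. For *Smim17* and *Popdc3* the call over Input did not hold with the replicate number as a block, which pairs libraries of the same number, and then 5 of 7 were called (log2 fold changes 1.11 and 1.16).

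IgG RIP was called lower than Input for 5 of the 7 mRNAs, *Desi2*, *Tmem35a*, *Pip4p1*, *Smim17* and *Popdc3*, against 764 of 15267 tested genes (5.0%), and higher for 0, against 6.79%. The median log2 fold change of IgG RIP over Input was -1.25 over the 7 mRNAs and -0.00 over all genes. A low IgG RIP level raises the ratio by which the members were chosen, so this direction is partly fixed by the choice. The count moved when 1 library was left out. It was 2 without IgG RIP replicate 1, 1 without IgG RIP replicate 2 and 6 without IgG RIP replicate 3. It was 1 without Input replicate 1 and 2 without either Input replicate 2 or Input replicate 3. Calls lower over all tested genes moved as well, to 602, 688 and 1104 without IgG RIP replicates 1, 2 and 3. Without Input replicates 1, 2 and 3 they were 550, 526 and 554. The log2 fold changes of the 5 stayed past 2-fold in all these fits (nearest to it *Pip4p1*, -1.04). On the log2 scale, the fold change over IgG RIP is the sum of the change over Input and the step from IgG RIP up to Input. The part over Input made up 88.9% of the sum for *Ankrd50*, 66.4% for *Hilpda*, 57.3% for *Pip4p1*, 56.9% for *Tmem35a*, 50.7% for *Desi2*, 43.8% for *Popdc3* and 40.7% for *Smim17*. *Smim17* and *Popdc3* thus had the larger part of their ratio below the Input level, and *Ankrd50* the smallest part.

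**Figure D2:**
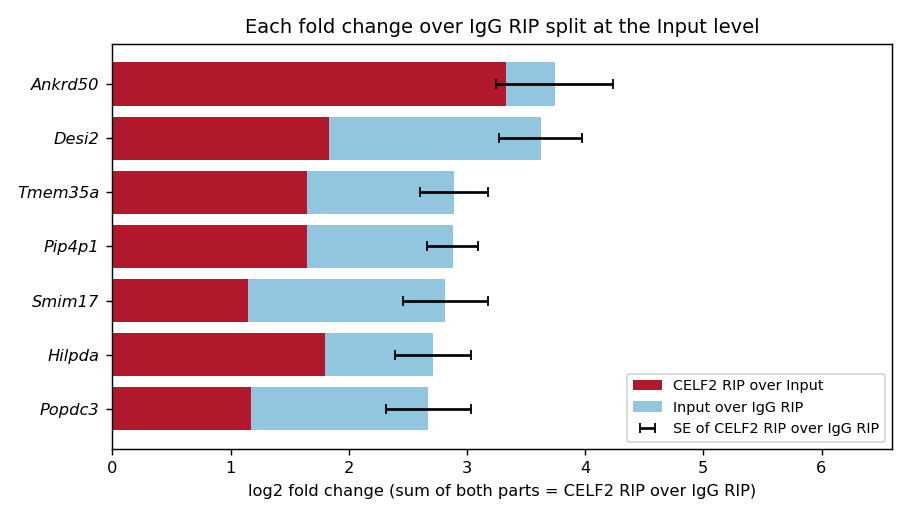
Log2 fold change of CELF2 RIP over IgG RIP for each mRNA (x axis), split into the change of CELF2 RIP over Input (red) and of Input over IgG RIP (blue), with the SE of the total as error bar. The red part runs from 1.15 for *Smim17* to 3.33 for *Ankrd50*, and the blue part is widest for *Desi2*.

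Ranked by the fitted change, the 7 mRNAs held places 26, 27, 45, 46, 51, 57 and 60 of 15267 over IgG RIP, in the order *Ankrd50*, *Desi2*, *Tmem35a*, *Pip4p1*, *Smim17*, *Hilpda* and *Popdc3*. Over Input their places spread out. *Ankrd50* was at 15, *Desi2* at 218, *Hilpda* at 253, *Pip4p1* at 425, *Tmem35a* at 435, *Popdc3* at 2021 and *Smim17* at 2111. The median change over Input was 1.65 for the 7 mRNAs and 0.19 over all genes, with quartiles at -0.71 and 0.84. In Input, whose CPM follow transcript length as well as abundance, *Tmem35a* stood at the 92.7th percentile of tested genes, *Pip4p1* at 64.0, *Desi2* at 44.9, *Ankrd50* at 35.4, *Hilpda* at 33.9, *Smim17* at 16.5 and *Popdc3* at 9.93.

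**Figure D3:**
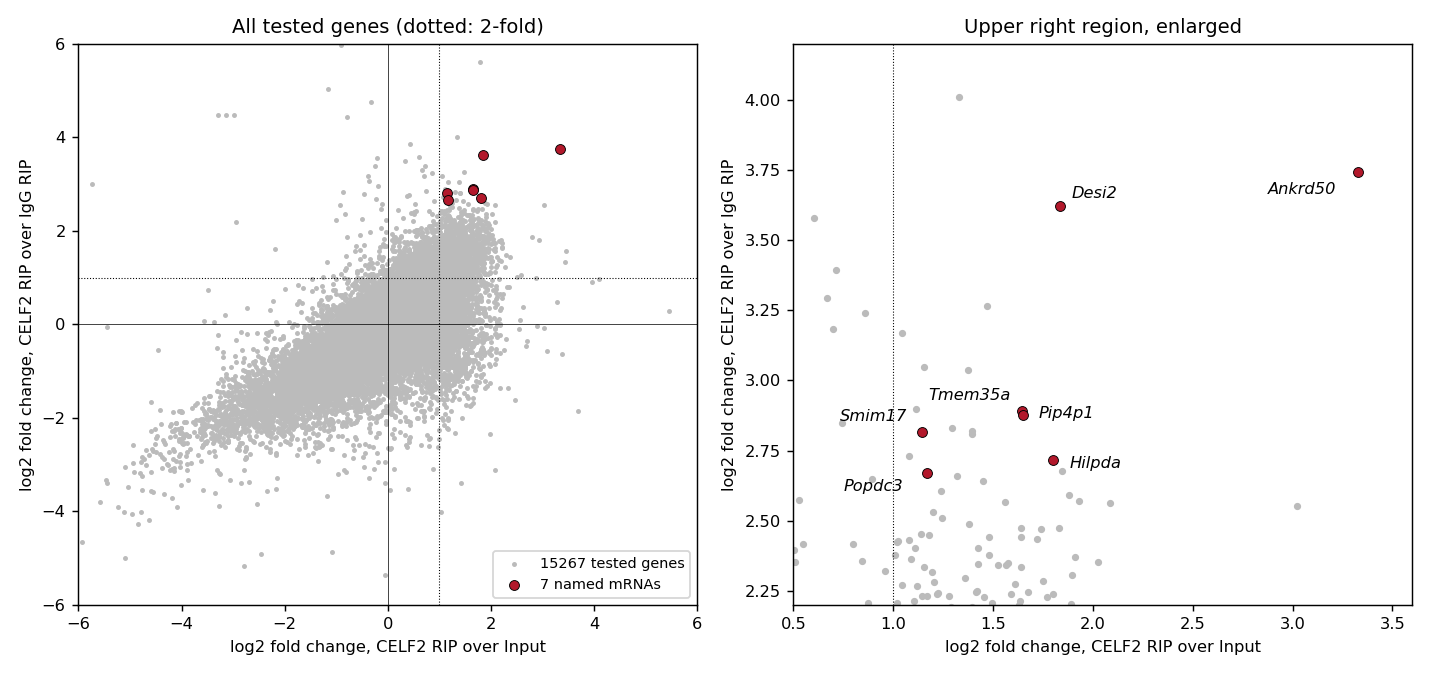
Log2 fold change of CELF2 RIP over Input (x axis) and over IgG RIP (y axis) for 15267 tested genes (grey) and the 7 mRNAs (red), over the full range (left, with 36 genes beyond ±6) and enlarged (right). *Ankrd50* lies far to the right at 3.33 over Input, while *Smim17* and *Popdc3* sit near the dotted 2-fold line at 1.15 and 1.17.

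The edges of the choice depend on how well counted a gene had to be. Among 14098 genes with at least 5 counts in each of the 6 control libraries, the unscaled mean CPM ratio over IgG RIP was 10.1 for *Ankrd50*, 9.51 for *Desi2*, 5.67 for *Tmem35a*, 5.61 for *Pip4p1*, 5.40 for *Smim17*, 5.05 for *Hilpda* and 4.93 for *Popdc3*. These were places 1, 2, 6, 7, 8, 10 and 11 of that order. The places between belonged to *Chmp3* at 8.999, *Tbcel* at 8.90, *Slc39a10* at 5.83 and *Hdc* at 5.25, and the next places after *Popdc3* to *Blcap* at 4.90, *Npbwr1* at 4.72 and *Htr7* at 4.68. With a minimum of 30 counts over the 6 controls together, in a set of 16241 genes, the members held places 87 to 140. There *Tmem19*, *Actrt3* and *Ovol2* stood just above *Ankrd50* with ratios of 12.2, 10.8 and 10.6, and 70 genes had no count in IgG RIP at all. The minimum of 5 counts was chosen after the values were seen.

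For 6 of the 7 mRNAs the replicates of CELF2 RIP differed more than for the median gene. The coefficient of variation in CELF2 RIP was 59.3% for *Ankrd50*, 42.1% for *Tmem35a*, 36.4% for *Smim17*, 26.6% for *Hilpda*, 24.7% for *Desi2* and 24.3% for *Pip4p1*, against a median of 17.7% over all tested genes. *Popdc3*, at 11.5%, was below that median. In Input, counted more deeply, the median over all genes was 7.52%, and 3 of the 7 mRNAs exceeded it. On TMM-scaled CPM, CELF2 RIP replicate 2 held the highest level for 6 mRNAs, with *Popdc3* as the exception. That library had the lowest TMM factor (0.771), which raises its CPM for every gene, and the share of all genes highest in it was not counted. The lowest level was in replicate 1 for 3 mRNAs and in replicate 3 for 4.

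Counts are deposited per transcript, and the split of a gene's counts between its transcripts did not enter the choice. *Desi2*, *Tmem35a* and *Smim17* had a single row each. The values of *Tmem35a* (NM_026239.2) and *Smim17* (NM_001134752.1) were whole numbers in all 9 libraries (within 1e-06), while those of *Desi2* (NM_024282.3) were not, as happens where the estimate divides reads between rows. The gene table lists 2 transcripts of *Desi2*, of which 1 had a matched row. For *Ankrd50* it lists 3, of which 2 had a matched row, and for *Pip4p1* 6, of which 5 had one. Which row shared the reads of *Desi2* was not examined. The gene totals of *Desi2*, *Ankrd50* and *Pip4p1* may therefore be incomplete in each group. The other 4 members had 2 to 5 rows each, estimated from reads that overlapping transcripts share. These splits are therefore less certain than the gene totals.

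*Ankrd50* had a curated row, NM_001167883.1, and a predicted row, XM_006535582.3. The curated row was at 10.4, 17.1 and 7.68 CPM in CELF2 RIP, 4.16, 7.61 and 5.10 CPM with IgG and 4.47, 4.19 and 3.47 CPM in Input, and its ratio of means over IgG RIP was 2.09. The predicted row was at 20.1, 115 and 119 CPM in CELF2 RIP, and at 4.05, 6.72 and 5.86 CPM in Input. In IgG RIP it was at 4.68 CPM in replicate 1, had no count in replicate 2 and was at 0.0155 CPM in replicate 3, the last from an estimated 0.217 counts. The predicted row carried 93.2% of the difference between the CELF2 RIP and IgG RIP means of the gene. With curated rows alone, the log2 fold change of *Ankrd50* over IgG RIP was 0.91 and no longer called, its change over Input was 1.51 and still called, and IgG RIP moved from -0.42 to 0.60 against Input. The low level of CELF2 RIP replicate 1 was also in this row, at 20.1 CPM, while the curated row of that replicate lay between the other replicates.

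*Pip4p1* had 5 rows, 4 of them curated. NM_001033271.5 held 59.7%, 63.4% and 71.2% of the gene's counts in CELF2 RIP, 54.2%, 62.0% and 53.4% in Input and 32.9%, 11.8% and 8.15% in IgG RIP. The predicted XM_017315964.1 went the other way, with 5.91%, 5.56% and 1.67% in CELF2 RIP, 5.59%, 6.76% and 8.79% in Input and 36.3%, 33.9% and 66.9% in IgG RIP. It was the row of *Pip4p1* whose mean CPM was not higher in CELF2 RIP than in IgG RIP (ratio 0.766), while NM_001033271.5 had a ratio of 25.6. For both rows the shares in CELF2 RIP and Input overlapped, and those in IgG RIP overlapped neither.

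*Hilpda* had 2 curated rows. NM_023516.5 held 74.1%, 88.9% and 99.8% of the gene in CELF2 RIP and 71.4%, 89.0% and 85.6% in Input, but 100%, 0% and 13.8% in the 3 IgG RIP libraries, whose gene totals were 43, 45 and 98 counts. NM_001190461.1 held the rest and had a mean CPM ratio over IgG RIP of 1.16. For *Popdc3*, the curated NM_024286.1 took all counts in CELF2 RIP and 94.7%, 92.4% and 77.4% in Input. In IgG RIP the 7 and 5 counts of replicates 1 and 3 were assigned to the predicted XM_006512931.3 and the 5 counts of replicate 2 to the curated row. Without predicted rows the log2 fold change of *Popdc3* over IgG RIP was 4.03 but no longer called.

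**Figure D4:**
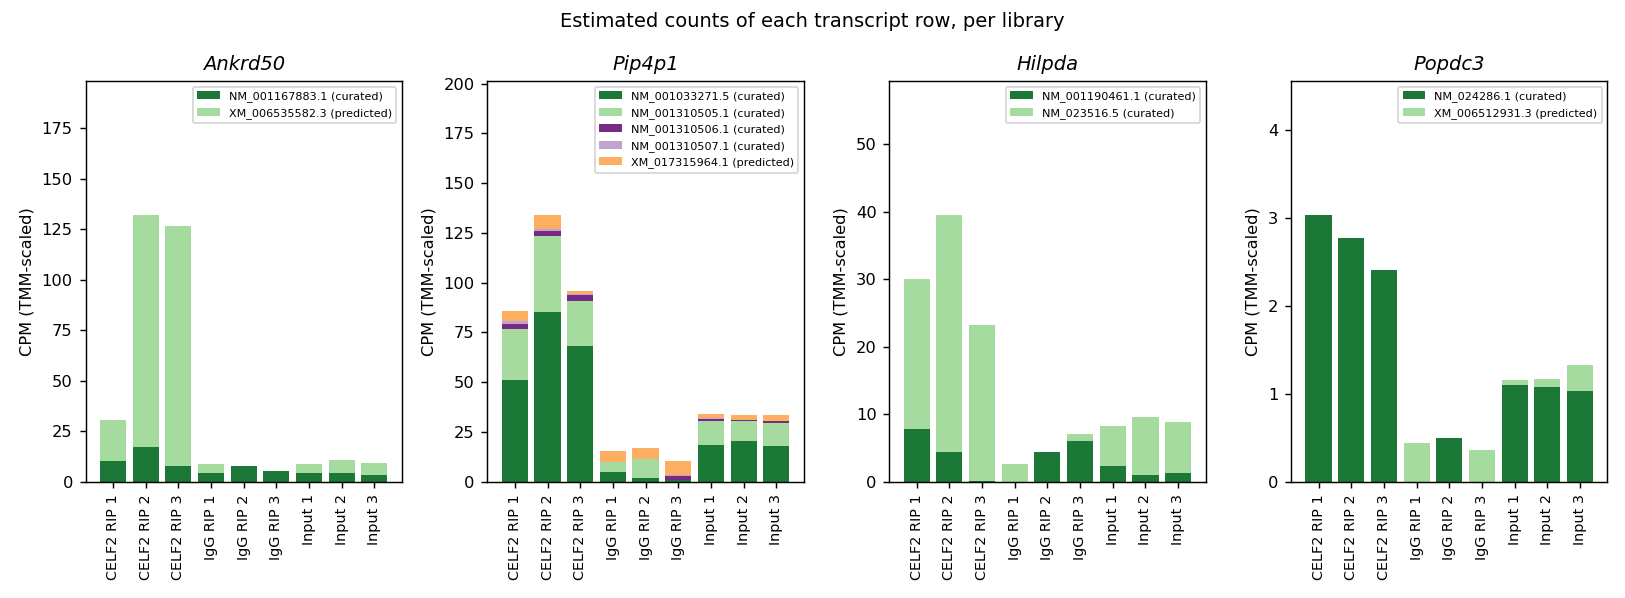
CPM of each transcript row (stacked colors, y axis, TMM-scaled, linear) in the 9 libraries (x axis) for the 4 genes with more than 1 row. The rise of *Ankrd50* in CELF2 RIP replicates 2 and 3 lies in the predicted row at 115 and 119 CPM, and the IgG RIP libraries of *Hilpda* and *Popdc3* switch between rows.

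Whether these splits differed between groups was tested with edgeR's diffSpliceDGE (Simes adjustment within a gene, FDR over 10467 genes with 2 or more rows). Between CELF2 RIP and IgG RIP, 0 of 4 members passed an FDR of 0.05, where 2.69% of genes did. The FDR from edgeR was 0.217 for *Popdc3*, 0.391 for *Pip4p1*, 0.556 for *Ankrd50* and 0.569 for *Hilpda*, and the unadjusted Simes p was under 0.05 for 1 of them, *Popdc3* (0.0188), while with the F test it was under 0.05 for 3, all but *Hilpda*. In this edgeR test *Ankrd50* passed without IgG RIP replicate 1, the IgG library that held counts of the predicted row (FDR 0.00267), and *Popdc3* passed with the F test in place of Simes (FDR 0.0451), which called 920 genes in place of 282. Between CELF2 RIP and Input, 0 of 4 passed with either edgeR method, against 1.83% of genes with Simes, and the members with an unadjusted p under 0.05 numbered 0 of 4 with Simes and 1 with the F test, *Popdc3*. The lowest edgeR FDR there was that of *Popdc3*, 0.538 with Simes and 0.154 with the F test.

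Genes that work with the 7 proteins were taken from 8 lists written around their known roles, with the members left out. Of 174 list genes tested, 31 (17.8%) were called higher in CELF2 RIP than in IgG RIP, beside 13.4% of all genes, and 16 were called lower, beside 13.6%. Scaling moved these counts. With total counts in place of TMM factors, which shifted the median log2 fold change over all genes from -0.06 to -0.42, 15 list genes were called higher. Calls of list genes over Input are given with TMM factors only. Over all tested genes, calls higher than Input fell from 2226 with TMM factors to 531 with total counts. Relative to the median of all genes, the 8 list medians kept their sign under TMM and the 3 other scalings, and that of the nicotinic list was 0.34 under each.

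Of 17 nicotinic receptor subunits and chaperones tested beside *Tmem35a*, 4 were called higher and 1 lower, with a median log2 fold change of 0.29. *Chrna7*, a receptor subunit that needs NACHO to assemble, was at 73.9 ± 24.1 CPM in CELF2 RIP, 24.3 ± 0.777 CPM with IgG and 25.2 ± 1.25 CPM in Input (SD, n = 3). It rose by 1.60 (edgeR FDR 0.000131) and was called over both controls, under all scalings over IgG RIP. *Ric3*, another receptor chaperone, was at 111 ± 8.31 CPM against 49.2 ± 1.66 and 54.5 ± 3.59 CPM and was also called over both, with 1.17 over IgG RIP and 0.80 with total counts, where it was not called. The change of *Ric3* over Input, 1.02, was close to the 2-fold threshold. Of 2 further subunit or modulator genes called higher, *Chrnb2* was at 1.25, or 0.88 and not called with total counts, and *Lypd6* at 1.502, and the gene called lower was *Ly6h* at -1.62. These 3 were picked after their values were seen.

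For *Ankrd50*, 5 of 23 genes of the SNX27, retromer and WASH machinery were called higher and 5 lower, with a median of -0.23. The balance depended on scaling, with 1 higher and 8 lower under total counts and 1 and 7 under upper-quartile factors. *Snx27*, the cargo adaptor, was at 231 ± 9.32 CPM in CELF2 RIP, 130 ± 9.34 CPM with IgG and 114 ± 3.11 CPM in Input. At 0.82 on the log2 scale it stayed under 2-fold over IgG RIP. It was called over Input at 1.02, close to the 2-fold threshold. The retromer core subunit *Vps35* was at -0.03 and the WASH subunit *Washc1* at -0.95 over IgG RIP, neither called. *Washc1* was called lower under the other 3 scalings.

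For *Desi2*, 4 of 22 genes of SUMO conjugation and removal were called higher and 1 lower, with a median of 0.46, and with total counts 1 was called higher and 2 lower. Its relative *Desi1* was at 24.995 ± 6.35, 22.1 ± 3.26 and 41.7 ± 5.45 CPM, with a log2 fold change over IgG RIP of 0.18 (edgeR FDR 0.478) that changed sign under 2 of 3 other scalings. The highest of the list was *Sumo3*, a SUMO modifier itself, at 2.04 and called under every scaling, a gene picked after its values were seen.

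For *Pip4p1*, 6 of 32 genes of lysosome positioning and lysosomal phosphoinositides were called higher and 5 lower, with a median of -0.11, and with total counts 4 were called higher and 6 lower. *Spag9*, which encodes the motor adaptor JIP4 that TMEM55B brings to lysosomes, was at 517 ± 92.7 CPM in CELF2 RIP, 230 ± 38.9 CPM with IgG and 215 ± 35.3 CPM in Input. It was called over both controls, with 1.17 over IgG RIP and 0.79 with total counts, where it was not called. The paralog *Pip4p2* was at 0.96 and just under 2-fold. *Arl8a* and *Arl8b*, small GTPases that move lysosomes, were called higher at 1.60 and 1.52 under every scaling and were picked after their values were seen.

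*Hilpda* had 2 lists. Of 20 lipid droplet and lipolysis genes, 2 were called higher and 3 lower, with a median of -0.27, and with total counts or upper-quartile factors 1 was called higher and 5 lower. The genes called higher, picked after their values were seen, were *Fitm2*, a lipid droplet formation gene, at 1.74 and under every scaling, and *Dgat2*, a triglyceride synthesis enzyme, at 1.17 and not called with total counts. *Pnpla2*, the triglyceride lipase that HILPDA inhibits, was at 4.45 ± 1.06 CPM in CELF2 RIP, 10.8 ± 3.19 CPM with IgG and 14.2 ± 0.961 CPM in Input, and fell by 1.29 (edgeR FDR 0.00191). *G0s2*, another inhibitor of that lipase, was at 0.146 ± 0.187, 1.85 ± 0.612 and 2.57 ± 0.199 CPM and was called lower. The droplet coat gene *Plin2* was at 0.44 (edgeR FDR 0.0328) and was not called. Of 26 hypoxia-induced genes 6 were called higher and 0 lower, with a median of 0.57, and with total counts 2 were called higher and 1 lower. *Vegfa*, the angiogenic factor, was at 0.87 and *Hif1a*, the oxygen-sensitive transcription factor, at 0.74, and neither reached 2-fold.

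For *Popdc3*, 3 of 17 genes of the Popeye family and of cAMP effectors were called higher and 0 lower, with a median of 0.38. With total counts 2 were called higher and 4 lower. All 3 genes called higher with TMM factors encode subunits of protein kinase A. *Prkar1a* was at 1.76, *Prkar2a* at 1.43 and *Prkacb* at 1.30 over IgG RIP, each also called over Input. *Prkacb* was close to the 2-fold threshold over Input, at 1.02, and was not called over IgG RIP with total counts. The other listed subunits of this kinase were called over neither control, with *Prkar1b* at 0.97, *Prkar2b* at 0.82 and *Prkaca* at 0.38 over IgG RIP. The family member *Bves* was at 1.01 ± 0.0296, 0.544 ± 0.0423 and 0.760 ± 0.153 CPM with a log2 fold change of 0.88 (edgeR FDR 0.0952), *Popdc2* did not pass the filter on low counts, and the potassium channel *Kcnk2*, a partner of Popeye proteins, was at -0.89 and not called. With total counts *Kcnk2* was called lower than in IgG RIP. With TMM factors it was called lower than in Input, at -1.14. Of 19 other SMIM genes tested beside *Smim17*, which share a name rather than a role, 2 were called higher, *Smim7* at 1.94 and *Smim13* at 1.70, and 1 lower, *Smim1* at -1.39, with a median of -0.46. *Smim18* was at -1.25 (edgeR FDR 0.0505).

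The profile of each mRNA over the 9 libraries was also set beside all other tested genes by Pearson's r of log2 CPM, as a description over libraries that share their group means. The 2 closest genes were *Nfic* (0.988) and *Tle4* (0.986) for *Ankrd50*, *Tmbim6* (0.997) and *Ids* (0.997) for *Desi2*, *Tmem130* (0.999) and *Pgrmc2* (0.996) for *Tmem35a*, and *Tmem186* (0.998) and *Lysmd2* (0.997) for *Pip4p1*. For *Smim17* they were *Elp6* (0.988) and *Ggta1* (0.984), for *Hilpda* *Nrsn1* (0.995) and *Tmem185b* (0.994), and for *Popdc3* *Tex261* (0.997) and *Tmem198* (0.996). A profile can be alike at a smaller amplitude. *Nfic* rose over IgG RIP by 0.77 where *Ankrd50* stood at 3.74, and *Tmem130* by 2.16 where *Tmem35a* stood at 2.89. Among the 21 pairs of the 7 mRNAs, r ran from 0.797 (*Ankrd50* and *Desi2*) to 0.983 (*Desi2* and *Tmem35a*), with a median of 0.926.

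Across 17 alternative settings the log2 fold changes over IgG RIP lay between 3.25 and 4.19 for *Desi2*, 2.49 and 3.15 for *Tmem35a*, 2.49 and 3.45 for *Pip4p1*, 2.43 and 3.07 for *Smim17*, and 2.34 and 3.14 for *Hilpda*. Leaving out 1 library at a time moved *Ankrd50* between 3.45 and 4.17, with the highest value without CELF2 RIP replicate 1. Over Input, *Ankrd50* and *Pip4p1* were called in 17 of 17 settings and *Desi2*, *Tmem35a* and *Hilpda* in 16. *Smim17* and *Popdc3* were each called in 4 of 17, and in 3 of the 9 fits that left out a library. The call of *Smim17* over Input was lost without CELF2 RIP replicate 2 or 3, IgG RIP replicate 2 or any 1 Input replicate, and that of *Popdc3* without any 1 CELF2 RIP or Input replicate.

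**Figure D5:**
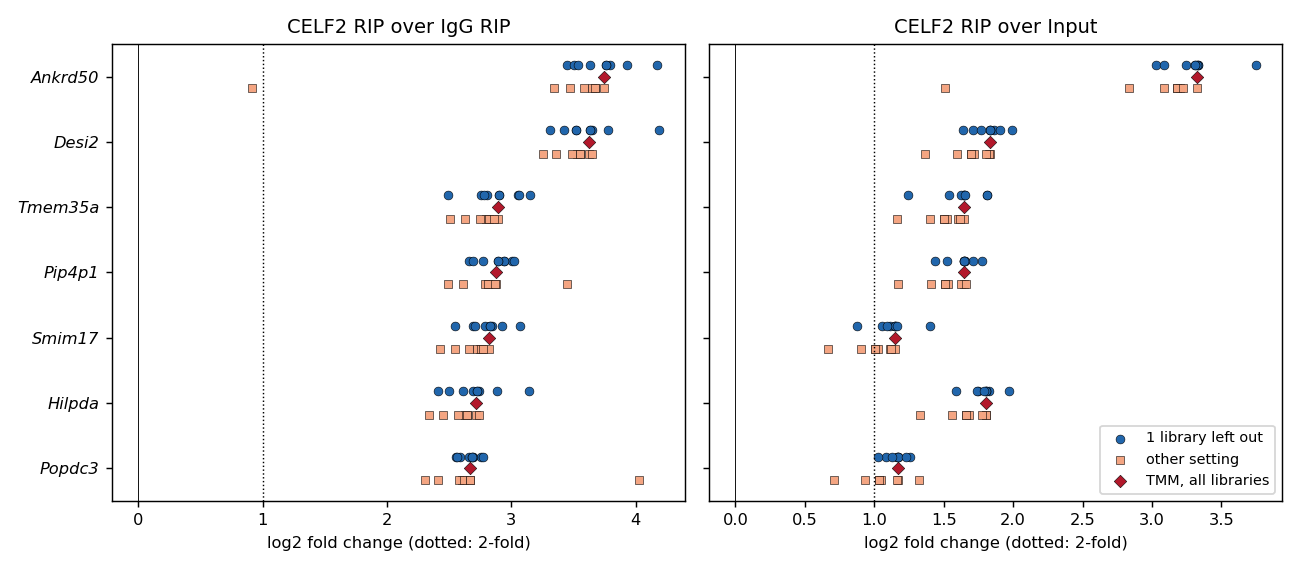
Log2 fold change of each mRNA over IgG RIP (left) and over Input (right) with TMM factors and all libraries (diamonds), with 1 library left out (circles) and under other settings (squares). The isolated square of *Ankrd50* at 0.91 is the fit on curated rows, and the values of *Smim17* and *Popdc3* over Input scatter around the dotted 2-fold line.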

How the data were processed

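RNA of the cytoplasmic cortical fraction was measured in 9 libraries. Per the labels and the paper, the authors trimmed reads with fastp 0.23.4 after FastQC 0.11.9, removed rRNA reads with Ribodetector 0.3.1 and quantified transcripts with kallisto 0.51.1. The authors deposited the kallisto estimated counts per RefSeq transcript, not normalized, while the paper names an Ensembl transcriptome. All 9 columns were used.

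Rows were matched by accession to a RefSeq gene table (GRCm38.p6), which 80.8% matched, and counts were summed per protein-coding gene and rounded. Genes with at least 0.5 CPM in 3 libraries were tested in edgeR 4.0.16 (R 4.3.3, limma 3.58.1) with TMM factors (0.771 to 1.16), a quasi-likelihood fit of 3 group means over all 9 libraries (biological coefficient of variation 0.221), and Benjamini-Hochberg FDR. DESeq2 1.42.0 was an alternative, and Python 3.11.15, pandas 2.3.3 and matplotlib 3.10.9 were used for summaries and plots. Rows with under 10 counts in all were left out of the transcript test. Steps were tested on simulated counts in which few genes changed. This does not test the scaling between the groups, where many genes differed. The labels name biological replicates without saying how many animals each holds, so p-values measure the spread between these libraries. Standard errors were derived from the quasi-likelihood test, as the absolute log2 fold change over the square root of its F statistic. They rest on a variance moderated across genes and not on a gene's own replicates alone. Reads carry no molecular identifiers.

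Deviations of same-numbered libraries from group means, across 10064 genes, correlated at 0.182, 0.188 and 0.289 between CELF2 RIP and Input for numbers 1, 2 and 3, at -0.129, 0.057 and -0.071 between CELF2 RIP and IgG RIP, and at 0.119, 0.133 and 0.025 between IgG RIP and Input. Values were positive for all numbers between CELF2 RIP and Input and, lower, between IgG RIP and Input. The paper describes Input as an aliquot of the fraction whose remainder went to the antibody or to IgG. It does not say which libraries share a fraction. Libraries of different number were not compared, and the labels do not state a pairing, so pairing is not settled. The main fit of group means uses none.

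Members and lists were chosen with earlier results of these data known. Genes named are the members, *Celf2*, the 2 closest profiles per member, neighbours in the ratio order and in the genome, and from each list the stated partners and, where 3 or fewer were called, those genes. Others are named as picked after their values were seen.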

Additional observations from a re-analysis of the deposited data

How the results depend on the processing

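Beyond the values in the report, 7 members were called over IgG RIP in every alternative except curated rows only, where 5 were. Over Input, 5 were called with total-count, DESeq2 size-factor or upper-quartile scaling, without a filter, with the replicate block or with curated rows, 7 with DESeq2's test, 5 to 7 with 1 library left out, and 2 with glmTreat against the 2-fold threshold. The count of members called different between IgG RIP and Input was 0 with glmTreat, 0 with curated rows, 4 with the replicate block and 1 to 6 with 1 library left out. List genes called higher over IgG RIP numbered 15 with total-count scaling, 19 with upper-quartile scaling, 11 with glmTreat, 32 with the replicate block and 28 to 32 with 1 library left out. Members whose transcript split was called over IgG RIP numbered 1 with the F test, 0 with the replicate block and 0 to 1 with 1 library left out. No fold change called at first reversed. The replicate block changed, besides the 2 calls over Input given above, the call of IgG RIP below Input for *Popdc3*. Over all tested genes, 2050 were called higher in CELF2 RIP than in IgG RIP with TMM factors and 2069 lower, 937 and 3421 with total counts, 1212 and 3017 with upper-quartile scaling and 545 and 622 with glmTreat. Over Input the counts higher were 2226, 531, 1177 and 339 in the same order. The cause of these moves was not tested. IgG RIP counts of 5 to 14 for *Smim17* and *Popdc3* limit the precision of their ratios.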
